A study of Mus musculus with 7 samples.

Results

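Genes that make the lipids of skin, namely the secretion of the sebaceous gland, fatty acids and sterols, were followed at the edge of day-5 wounds in mice with and without MFG-E8. The list held 30 gene symbols, of which 26 had at least 1 probe set annotated to that symbol alone. These were 8 sebaceous genes, 6 genes of fatty acid synthesis and 12 genes of sterol synthesis, read by 56 of the 45037 probe sets tested, or 26 of 18193 genes. The sebaceous ester synthases Awat1, Awat2 and Soat1 and their relative Dgat2l6 had no such probe set and were dropped. The rule for membership names functions and uses no measured value, though the list was drawn up with earlier results of these data known.

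The 1-colour Affymetrix mouse arrays compared 3 MFG-E8 WT (wild type) animals, numbered 2, 3 and 4, with 4 MFG-E8 KO (knockout) animals, numbered 8, 10, 11 and 12, at 1 array per animal. All were C57BL/6 mice and all samples were wound-edge tissue of day 5. The labels name no allele, age, sex, litter, batch or other treatment. MFG-E8 is a secreted protein that helps phagocytes take up dying cells by bridging the lipid phosphatidylserine to their integrins, and the question, per the series title, is what expression looks like at the wound edge with and without it.

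The sebaceous gland sits beside the hair follicle and fills its cells with wax esters, triglycerides and squalene before they burst and release sebum. Fatty acids are built by acetyl-CoA carboxylase and fatty acid synthase, lengthened by elongases and made unsaturated by desaturases. Cholesterol is built from acetyl-CoA through mevalonate, farnesyl diphosphate, squalene and lanosterol. SREBP-1, the product of Srebf1, is best known for driving fatty acid genes, and SREBP-2, the product of Srebf2, for driving sterol genes. INSIG proteins hold both factors back in the endoplasmic reticulum when sterols are plentiful. In skin these pathways also supply lipids of the epidermal water barrier.

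Promoters of sterol genes are known for short sites read by SREBP and by its partner NF-Y, and SREBP-1 can also read an E-box. These letters were looked up in RefSeq promoter windows of mouse assembly GRCm38.p6, each from 250 bases before to 50 bases after a start, and 18 of the 26 measured members had such a window (22 windows). The letters searched, on both strands, were CACCCCAC for an SRE core, CCAAT for the NF-Y box and CACGTG for the E-box. The 250 bases before the start are printed 5′ to 3′ for 3 sterol genes. Hmgcs1 is shown because its window alone among the members held the SRE letters, Idi1 because it held only the NF-Y letters, and Insig1 because it held an E-box and, as described further on, was ordered differently over the animals. Capitals mark the letters found, with CCAAT read on the opposite strand as ATTGG. The windows are chr13:119690101-119690350, chr13:8885356-8885605 and chr5:28071162-28071411, all on the plus strand.
Hmgcs1: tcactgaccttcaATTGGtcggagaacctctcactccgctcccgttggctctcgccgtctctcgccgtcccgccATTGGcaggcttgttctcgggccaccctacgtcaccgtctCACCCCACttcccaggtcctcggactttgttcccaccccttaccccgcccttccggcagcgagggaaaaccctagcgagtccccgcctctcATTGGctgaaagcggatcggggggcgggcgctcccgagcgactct
Idi1: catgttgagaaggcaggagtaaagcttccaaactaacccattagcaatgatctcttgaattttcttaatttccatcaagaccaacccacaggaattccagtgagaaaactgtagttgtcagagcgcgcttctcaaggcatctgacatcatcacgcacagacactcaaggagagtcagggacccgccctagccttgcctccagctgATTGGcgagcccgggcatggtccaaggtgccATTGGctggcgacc
Insig1: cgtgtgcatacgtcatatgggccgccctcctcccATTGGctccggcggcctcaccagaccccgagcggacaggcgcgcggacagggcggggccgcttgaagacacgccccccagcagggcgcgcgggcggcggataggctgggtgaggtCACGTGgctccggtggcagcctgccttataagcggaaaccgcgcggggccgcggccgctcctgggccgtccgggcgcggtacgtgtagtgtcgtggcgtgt

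Counted from the start as base 1, the SRE letters of Hmgcs1 began at -136, and its NF-Y letters in the printed bases began at -237, -176 and -45. In Idi1 the NF-Y letters began at -45 and -14. In Insig1 they began at -216 and the E-box at -101. No capitals overlapped in these windows. The NF-Y letters were found in all 9 sterol genes with a window, namely Cyp51, Dhcr7, Hmgcs1, Idi1, Insig1, Lss, Mvd, Sc5d and Srebf2. Over windows this was 9 of 11 (81.8%), beside 37.4% of all 32851 windows. Among the other members they were found in 2 of 5 fatty acid genes with a window (Fasn and Srebf1) and in 2 of 4 sebaceous genes (Acsbg1 and Far1). The E-box letters were found in Dhcr7, Insig1 and Sc5d, beside 7.15% of all windows, and the SRE core in Hmgcs1, beside 2.87%. These are matches of letters in a fixed window, not sites shown to be bound.

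Every array value given here is a log2 value from which the submitters had subtracted 1 constant per probe set, so 0 is their baseline and not the absence of a transcript. Levels of different genes can therefore not be compared. A gene's value is the mean of its own probe sets in its highest recovered band of level. On that coarse scale of 2 to 4, 4 to 8, and 8 or above (log2), 23 members lay in the top band and Mc5r, Fads2 and Insig1 in the middle one, and none lay in the lowest. Of 12 epidermal keratinocyte markers, 11 lay in the top band, as did all 12 skeletal muscle markers. Only 3 of 22 hair follicle markers did. A band reflects the lowest array, and the hair follicle markers had a median range of 7.25 over the animals. Array medians lay between -0.0042 and 0.0121. The labels were checked on Mfge8, which measured 0.91, 0.76 and 0.996 in WT animals 2, 3 and 4, and -0.64, -0.96, -1.14 and -1.30 in KO animals 8, 10, 11 and 12. Mfge8 fell by 1.90 in KO (SE 0.16, limma adjusted p = 0.00875), and its groups did not overlap. Leaving out WT animal 2, WT animal 3 and KO animal 10 in turn gave limma adjusted p of 0.0922, 0.0669 and 0.059. Which exons the knockout lacks is not in the labels, so what this probe set can show of the deletion is not known.

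None of the 26 lipid genes passed the test of a difference between the genotypes, limma with Benjamini-Hochberg adjustment over all genes and a threshold of 0.05. The smallest adjusted p was 0.671. Over the whole array 0.011% of genes passed (2 of 18193), and of probe sets 0.0444% passed (20 of 45037), with 0 of the 56 member probe sets among them. At an unadjusted p under 0.05 there were also 0 member genes, beside 8.2% of all genes, and 0 member probe sets, beside 7.39% of all probe sets. In no member did the KO animals lie wholly above or below the WT animals, beside 8.43% of all genes. With 3 and 4 animals, however, the 95% intervals were wide. They ran from -0.18 to 0.24 for Acaca, the narrowest, to -1.02 to 0.89 for Dhcr7, the widest. For 24 of the 26 members both bounds lay within 1 log2 unit of 0. Of the 17 members with more than 1 probe set, 8 had probe sets that all shared a sign, and single member probe sets differed by -0.35 to 0.43.

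**Figure D1:**
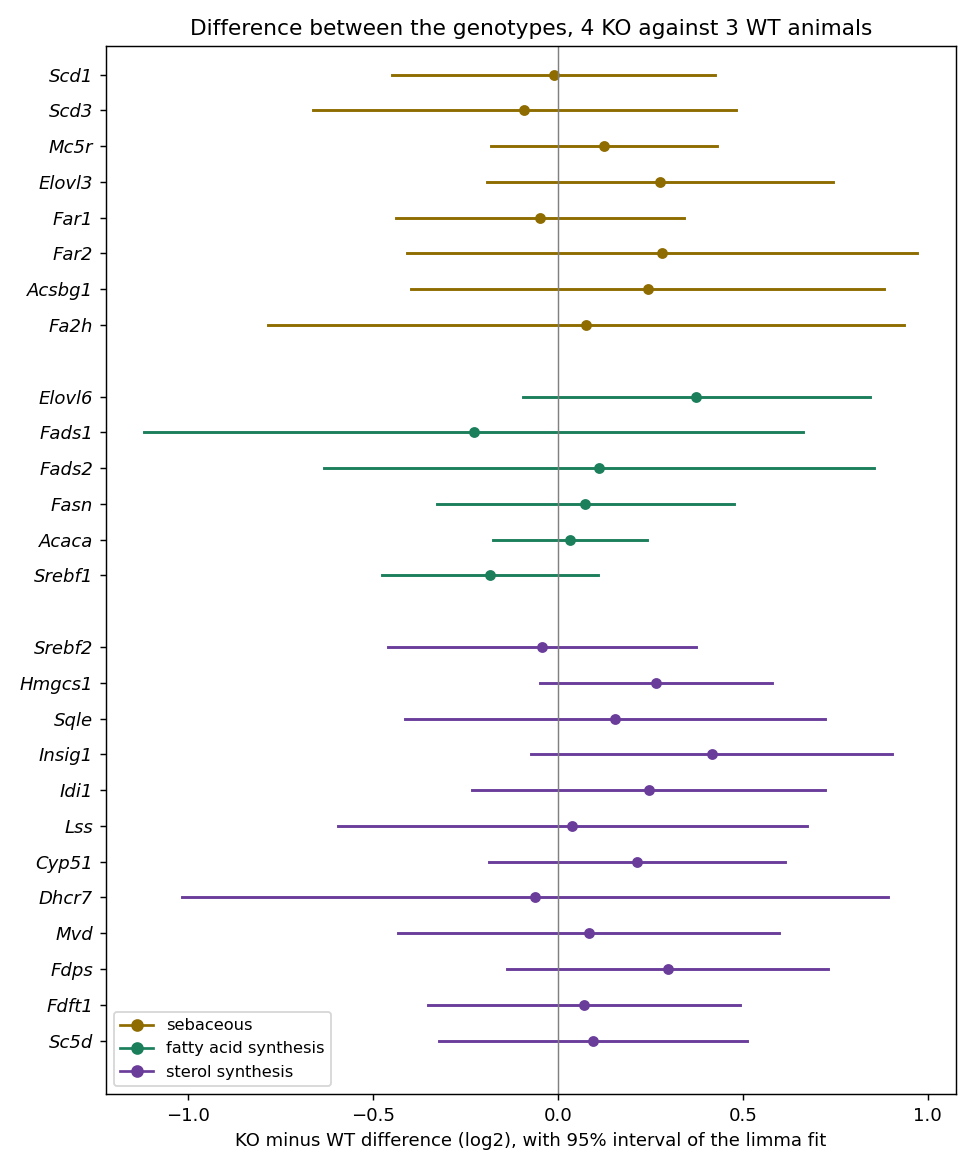
KO minus WT difference of each of the 26 measured lipid genes on the log2 scale (points) with the 95% interval of the limma fit (lines), for 4 KO and 3 WT animals, coloured by role. Every interval crosses 0, from Acaca, the narrowest at -0.18 to 0.24, to Dhcr7, the widest at -1.02 to 0.89.

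By sign, 19 members were higher and 7 lower in KO (73.1% higher, beside 50.9% of all genes). The median difference was 0.089, beside 0.0038 over all genes, and the median size of a difference was 0.117 for members and for all genes alike. The spread between animals of 1 group was larger for these genes, with a median pooled SD of 0.306 beside 0.188 over all genes. In 21 of the 26 (80.8%, beside 69.2% of all genes) the difference was smaller than that SD. The lean to the higher side was not tested, and it shrank to 13 of 26 without WT animal 3, where the median became 0.015.

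Among the sebaceous genes, 5 were higher and 3 lower in KO, with a median difference of 0.099, and all 8 differences were smaller than the pooled SD. This median became 0.030 when WT animal 3 was left out, 0.033 when KO animal 12 was, and 0.30 when KO animal 8 was. Far2 reduces fatty acyl-CoA to the alcohols of wax esters. Its values were 0.21, -0.44 and 0.072 in WT animals 2, 3 and 4, and -0.33, -0.072, 0.43 and 0.89 in KO animals 8, 10, 11 and 12. KO animals 11 and 12 lay above every WT animal and KO animal 8 below WT animals 2 and 4, so the groups overlapped. The difference was 0.28 (SE 0.30, limma adjusted p = 0.844), and it ranged from 0.061 without KO animal 12 to 0.47 without KO animal 8.

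Elovl3, an elongase of sebum fatty acids and a usual marker of the gland, measured 0.021, -0.35 and 0.051 in the WT animals and -0.14, -0.021, 0.24 and 0.65 in the KO animals, with the KO animals in the same order. KO animals 11 and 12 were above all WT animals and KO animals 8 and 10 were not, for a difference of 0.28 (SE 0.20, limma adjusted p = 0.776). Acsbg1, which activates long-chain fatty acids, measured 0.47, -0.11 and -0.021 in the WT animals and -0.15, 0.021, 0.64 and 0.91 in the KO animals. Again KO animals 11 and 12 exceeded all WT animals, and the difference was 0.24 (SE 0.28, limma adjusted p = 0.858). Without KO animal 12 the differences became 0.12 for Elovl3 and 0.058 for Acsbg1.

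Fa2h, which adds a hydroxyl group to fatty acids of sphingolipids and sebum, had the widest spread of the sebaceous genes. Its values were 0.23, -0.27 and -0.076 in the WT animals and -0.99, 0.076, 0.28 and 0.78 in the KO animals. KO animals 8 and 12 were the lowest and the highest of all 7, and the means were -0.039 ± 0.25 (SD, n = 3) for WT against 0.036 ± 0.75 (SD, n = 4) for KO, a difference of 0.075 with an interval of -0.79 to 0.94.

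The stearoyl-CoA desaturases of sebum showed no common pattern. Scd1, the main one of skin, measured -0.051, -0.045 and 0.070 in the WT animals and -0.29, -0.32, 0.11 and 0.43 in the KO animals. The WT animals lay close together within the span of the KO animals, and the means were nearly equal, -0.0086 ± 0.068 (SD, n = 3) for WT against -0.020 ± 0.36 (SD, n = 4) for KO. Scd3, known from sebocytes, measured 0.65, -0.47 and 0.11 in the WT animals and -0.21, -0.11, 0.16 and 0.19 in the KO animals. Here the WT animals spanned the KO animals, with a difference of -0.091 (SE 0.25). Mc5r, the melanocortin receptor of sebocytes, measured -0.21, 0.042 and -0.042 in the WT animals and -0.23, 0.12, 0.16 and 0.18 in the KO animals. KO animal 8 stood apart from the other KO animals and lay near WT animal 2, and the difference was 0.12 (SE 0.13, limma adjusted p = 0.847). Far1, the more widely expressed relative of Far2, measured -0.12, 0.022 and 0.24 in the WT animals and 0.34, 0.096, -0.27 and -0.17 in the KO animals, so it was high in KO animal 8 and low in KO animals 11 and 12, opposite ends to Far2.

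**Figure D2:**
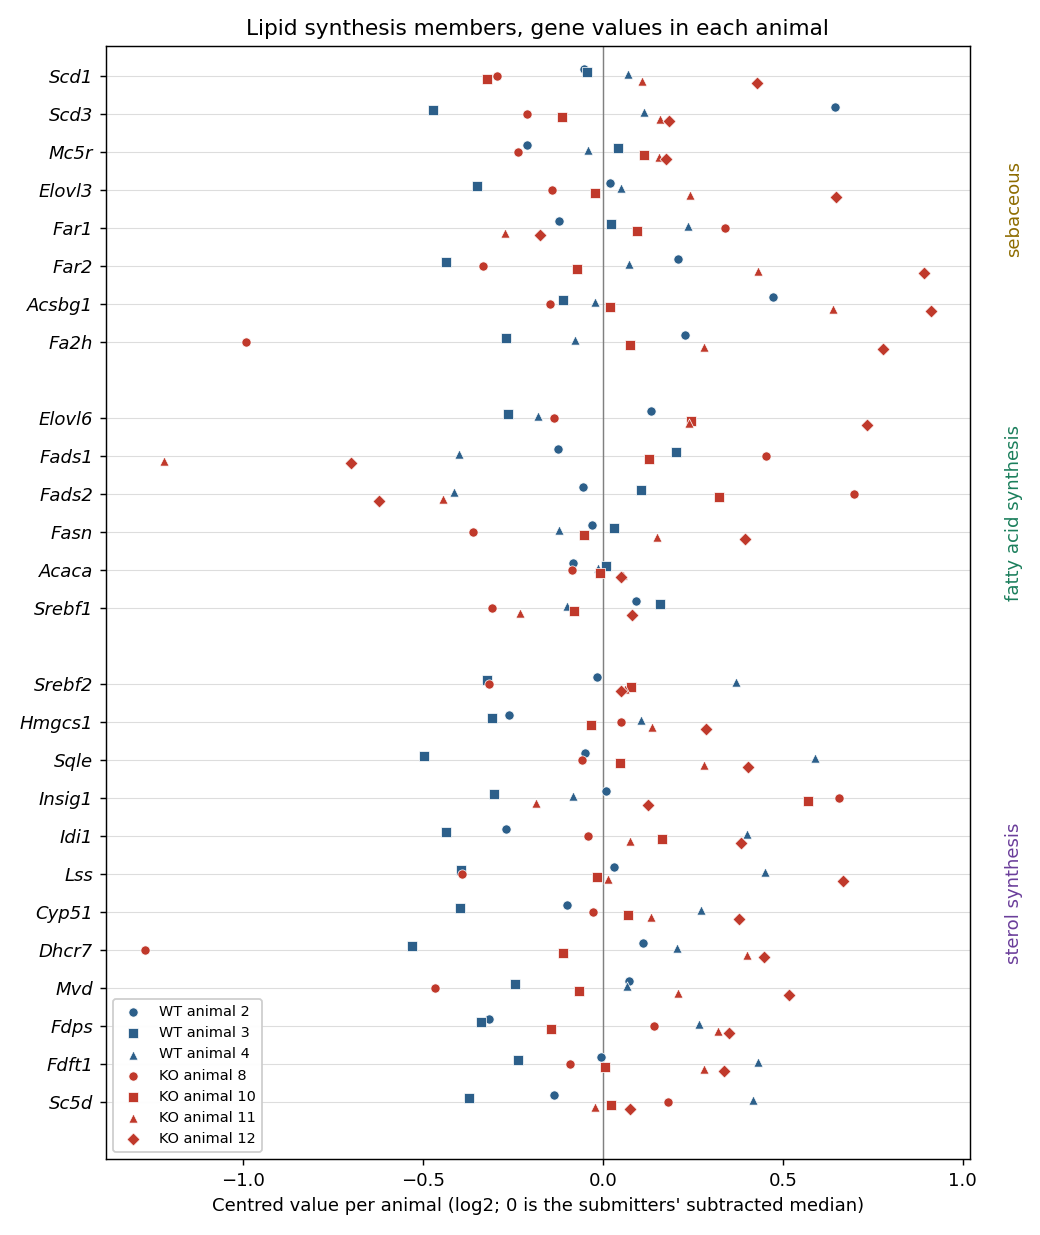
Centred log2 gene values of the 26 measured lipid genes in each animal, WT in blue and KO in red, with a marker shape per animal and genes grouped by role. KO animal 12 (red diamond) is the highest KO animal in 19 of the 26 genes and KO animal 8 (red circle) the lowest in 18, while Fads1, Fads2, Far1, Insig1 and Sc5d show KO animal 8 above KO animals 11 and 12.

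Of the 6 genes of fatty acid synthesis, 4 were higher and 2 lower in KO, with a median difference of 0.053 that lay between -0.032 without KO animal 8 and 0.081 without WT animal 3. Elovl6 lengthens palmitate to stearate and had the largest difference of these 6. Its values were 0.13, -0.26 and -0.18 in the WT animals and -0.13, 0.25, 0.24 and 0.74 in the KO animals. KO animals 10, 11 and 12 exceeded all WT animals while KO animal 8 did not, and the means were -0.10 ± 0.21 (SD, n = 3) for WT against 0.27 ± 0.36 (SD, n = 4) for KO. The difference of 0.37 (1.30-fold, SE 0.20) had a limma adjusted p of 0.696 and an interval of -0.095 to 0.84. A further probe set for Elovl6, of the middle band and not part of this value, had a difference of -0.35.

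Fads1 and Fads2 are the desaturases that make polyunsaturated fatty acids. Fads1 measured -0.12, 0.20 and -0.40 in the WT animals and 0.45, 0.13, -1.22 and -0.70 in the KO animals. KO animal 8 was the highest of all 7 animals and KO animals 11 and 12 the lowest, opposite ends to Far2 and Elovl3. The difference was -0.23 (SE 0.39, limma adjusted p = 0.920). Fads2 measured -0.056, 0.10 and -0.41 in the WT animals and 0.70, 0.32, -0.44 and -0.62 in the KO animals, the same order at both ends but with KO animals 11 and 12 exchanged. Its difference was 0.11 (SE 0.32), opposite in sign to that of Fads1, and both were smaller than the spread within the KO group. The Fads1 value rests on 1 probe set. The other Fads1 probe set, of the middle band and not part of this value, had a difference of 0.24. In it KO animal 11 was the highest of all animals (0.60) and KO animal 12 the lowest (-0.44).

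Fasn, the fatty acid synthase, measured -0.031, 0.031 and -0.12 in the WT animals and -0.36, -0.051, 0.15 and 0.40 in the KO animals. The WT animals stayed within the span of the KO animals, and the difference was 0.074 (SE 0.17). Acaca, the carboxylase that supplies Fasn with malonyl-CoA, varied least of all members by its gene value, from -0.085 to 0.055 over the 7 animals. Its difference was 0.032 (SE 0.090). The other Acaca probe set, of the middle band and not part of this value, ran from -0.41 to 0.28. Srebf1 measured 0.094, 0.16 and -0.10 in the WT animals and -0.31, -0.081, -0.23 and 0.081 in the KO animals. WT animals 2 and 3 exceeded all KO animals and WT animal 4 did not, for a difference of -0.18 (SE 0.13, limma adjusted p = 0.755).

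Of the 12 sterol genes, 10 were higher and 2 lower in KO, with a median difference of 0.12. Insig1, the sterol-sensing anchor of SREBP, had the largest difference of all 26 members. Its values were 0.0097, -0.30 and -0.083 in WT animals 2, 3 and 4, and 0.66, 0.57, -0.19 and 0.12 in KO animals 8, 10, 11 and 12. KO animals 8, 10 and 12 were above all WT animals while KO animal 11 lay below WT animals 2 and 4. The means were -0.12 ± 0.16 (SD, n = 3) for WT against 0.29 ± 0.39 (SD, n = 4) for KO, a difference of 0.42 (1.33-fold, SE 0.21, limma adjusted p = 0.671).

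The enzymes of the early pathway followed another order. Hmgcs1, which makes HMG-CoA, measured -0.26, -0.31 and 0.11 in the WT animals and 0.052, -0.031, 0.14 and 0.29 in the KO animals. WT animals 2 and 3 were the lowest of all and WT animal 4 lay among the KO animals, for a difference of 0.27 (SE 0.14, limma adjusted p = 0.671). A further Hmgcs1 probe set, of the middle band and not part of this value, had a difference of -0.12. Idi1, the isomerase of isopentenyl diphosphate, measured -0.27, -0.43 and 0.40 in the WT animals and -0.042, 0.16, 0.074 and 0.38 in the KO animals. Here WT animal 4 was the highest of all 7 and the other WT animals the lowest, and the difference was 0.25 (SE 0.21). Fdps, which makes farnesyl diphosphate, measured -0.32, -0.34 and 0.27 in the WT animals and 0.14, -0.14, 0.32 and 0.35 in the KO animals, again with WT animals 2 and 3 lowest, for a difference of 0.30 (SE 0.19). The other Fdps probe set, of the lowest band and not part of this value, had a difference of -0.042. Mvd, the decarboxylase before Idi1, measured 0.074, -0.24 and 0.066 in the WT animals and -0.47, -0.066, 0.21 and 0.52 in the KO animals, and its difference was 0.083 (SE 0.22).

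From squalene onwards the differences were mostly small beside their errors. Fdft1, squalene synthase, measured -0.0062, -0.24 and 0.43 in the WT animals and -0.091, 0.0062, 0.28 and 0.34 in the KO animals. Sqle, the epoxidase and a rate-limiting step, measured -0.049, -0.50 and 0.59 in the WT animals and -0.058, 0.049, 0.28 and 0.40 in the KO animals. In both genes WT animals 3 and 4 were the lowest and the highest of all 7, with the KO animals in between, and the differences were 0.070 (SE 0.18) and 0.15 (SE 0.25). Lss, which closes the ring to lanosterol, measured 0.032, -0.39 and 0.45 in the WT animals and -0.39, -0.015, 0.015 and 0.67 in the KO animals. KO animal 8 lay level with WT animal 3, the lowest, KO animal 12 lay above all other animals, and the difference was 0.039 (SE 0.28).

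Cyp51, which demethylates lanosterol, measured -0.098, -0.40 and 0.27 in the WT animals and -0.026, 0.071, 0.13 and 0.38 in the KO animals, for a difference of 0.21 (SE 0.17, limma adjusted p = 0.797). Sc5d, a late desaturase, measured -0.14, -0.37 and 0.42 in the WT animals and 0.18, 0.023, -0.023 and 0.076 in the KO animals. Its KO animals lay within the WT range, and the difference was 0.094 (SE 0.18). Further Sc5d probe sets, of the middle band and not part of this value, had differences of -0.036 and -0.13. Dhcr7, the last enzyme on the route to cholesterol through 7-dehydrocholesterol, measured 0.11, -0.53 and 0.21 in the WT animals and -1.27, -0.11, 0.40 and 0.45 in the KO animals. KO animal 8 lay far below the other 6 animals, the group means were -0.072 ± 0.40 (SD, n = 3) for WT against -0.13 ± 0.80 (SD, n = 4) for KO, and the difference was -0.062. Srebf2 measured -0.015, -0.32 and 0.37 in the WT animals and -0.32, 0.078, 0.063 and 0.050 in the KO animals. KO animals 10, 11 and 12 lay close together and KO animal 8 near the lowest WT animal, for a difference of -0.043 (SE 0.18). This value averaged 2 probe sets, with KO animal 8 at -0.68 in 1 and at 0.041, among the other KO animals, in the other.

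Within each genotype most sterol genes ranked the animals alike. WT animal 3 was the lowest WT animal in 12 of 12 sterol genes, beside 33.2% of all genes, and WT animal 4 the highest in 10 of 12, beside 35.6%. KO animal 12 was the highest KO animal in 9 of 12, beside 28.7% of all genes, and KO animal 8 the lowest in 8 of 12, beside 34.9%. The means of the 12 genes were -0.077, -0.36 and 0.29 in WT animals 2, 3 and 4 and -0.14, 0.050, 0.14 and 0.34 in KO animals 8, 10, 11 and 12. The span within WT, from WT animal 3 to WT animal 4, was larger than the difference of the group means, -0.050 ± 0.33 (SD, n = 3) for WT against 0.098 ± 0.20 (SD, n = 4) for KO. Without WT animal 3 the median difference of the sterol genes became -0.049, with 5 of 12 higher in KO. Without WT animal 4 it became 0.35, with 12 of 12 higher, and Cyp51, Fdps, Hmgcs1, Idi1 and Sc5d then had an unadjusted p under 0.05 (beside 9.62% of all genes) but limma adjusted p between 0.319 and 0.501. These animals were singled out after their values were seen.

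Means of the sebaceous genes put the KO animals in the same order as those of the sterol genes and WT animal 3 lowest among WT, with WT animals 2 and 4 exchanged. They were 0.15, -0.20 and 0.051 in WT animals 2, 3 and 4 and -0.25, -0.027, 0.22 and 0.48 in KO animals 8, 10, 11 and 12, and KO animal 12 was the highest KO animal in 7 of 8 and KO animal 8 the lowest in 6 of 8. Means of the fatty acid genes were -0.011, 0.041 and -0.20 in WT animals 2, 3 and 4 and 0.044, 0.093, -0.24 and -0.010 in KO animals 8, 10, 11 and 12. The KO means averaged over opposite ends, with KO animal 8 the highest KO animal in Fads1 and Fads2 and the lowest in Fasn and Elovl6. Among the WT animals, Fasn had the same order as Fads1 and Fads2.

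Markers of other tissue parts also differed between these animals. In bulk tissue, fewer cells of a type and less RNA per cell cannot be told apart. The means of 12 epidermal keratinocyte markers were -0.023, -0.34 and 0.025 in WT animals 2, 3 and 4 and -0.49, -0.074, 0.35 and 0.32 in KO animals 8, 10, 11 and 12. Of these markers, 7 were higher and 5 lower in KO, with a median difference of 0.091. An unadjusted p under 0.05 was reached by 1 of them, beside 8.2% of all genes. WT animal 3 was the lowest WT animal in 10 of 12 of them and KO animal 8 the lowest KO animal in 9 of 12, as in the sterol and sebaceous genes. At the high end they differed from those genes, with KO animal 11 the highest KO animal in 7 of 12 and KO animal 12 in 3 of 12. The means of 22 hair follicle markers were 0.78, -1.66 and -2.67 in WT animals 2, 3 and 4 and 4.00, 4.07, -2.34 and -0.82 in KO animals 8, 10, 11 and 12, very high in KO animals 8 and 10, the animals in which Insig1, Fads1 and Fads2 were highest among KO. All 22 were higher in KO, beside 50.9% of all genes, with a median difference of 2.40. By their lowest array, 15 of them lay in the lowest band. At an unadjusted p under 0.05 there were 0, beside 8.2% of all genes. The means of KO animals 11 and 12 lay below that of WT animal 2. The 2 with the smallest p were Krt33b, a hair keratin, with a difference of 3.04 (SE 1.69), and Foxn1, a factor of hair keratinization, with 0.98 (SE 0.54). Without KO animals 8 and 10 these differences became 0.14 and 0.059.

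The means of 9 dermal adipocyte markers were -0.56, 0.57 and 0.069 in WT animals 2, 3 and 4 and -0.41, -0.41, 0.012 and 0.058 in KO animals 8, 10, 11 and 12, and 2 were higher and 7 lower in KO. All 12 skeletal muscle markers were lower in KO, with means of -0.35, 0.56 and 0.19 in WT animals 2, 3 and 4 and -1.02, -0.75, 0.025 and -0.039 in KO animals 8, 10, 11 and 12. In both lists WT animal 2 and KO animals 8 and 10 were low and WT animal 3 was high. All 10 macrophage markers were also lower in KO, with a median difference of -0.43, and 5 of them had an unadjusted p under 0.05, beside 8.2% of all genes, while 0 passed adjustment. Their means, 0.37, 0.29 and 0.050 in WT animals 2, 3 and 4 and -0.058, -0.37, -0.48 and -0.069 in KO animals 8, 10, 11 and 12, did not overlap between the genotypes and did not follow the animal order of the sterol genes. The part of these tissue markers in the order of the lipid genes was not tested. In the lists of epidermis, adipocytes and muscle the genes with the smallest p were Dsg1a, a desmosomal cadherin, at 0.53 (SE 0.21), Trp63, the keratinocyte factor p63, at 0.35 (SE 0.16), Plin4 at -0.44 (SE 0.34), Retn at -0.57 (SE 0.46), Mylpf at -0.55 (SE 0.27) and Myh4 at -0.93 (SE 0.50). Their limma adjusted p lay between 0.576 and 0.795.

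**Figure D3:**
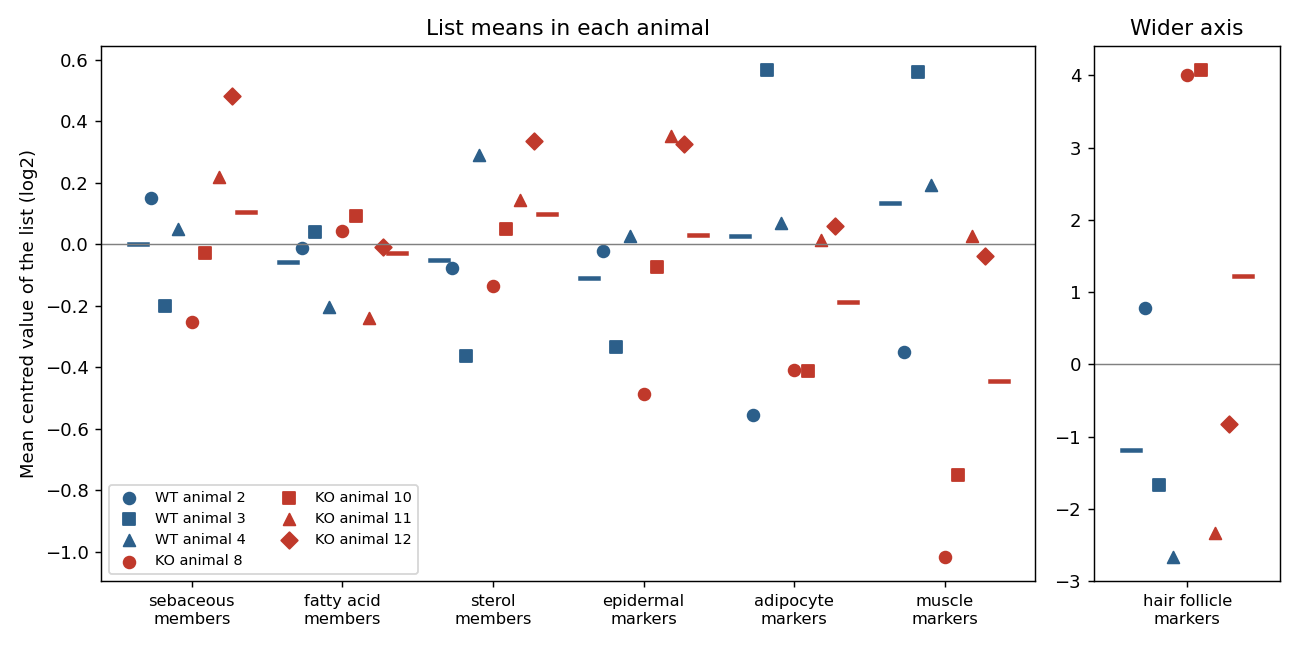
Mean centred log2 value of each gene list in each animal (points, with marker shapes per animal) and the mean over the animals of a group (short bars), WT in blue and KO in red, with hair follicle markers on a wider axis. WT animal 3 and KO animal 8 are low in sterol, sebaceous and epidermal genes alike, and KO animals 8 and 10 stand near 4 in the hair follicle markers.

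Fits that took these differences into account moved the values without bringing any member past the threshold. With the hair follicle mean as a covariate, Fads1, Fdps and Hmgcs1 had an unadjusted p under 0.05 (10.5% of all genes did), with differences of -0.70, 0.46 and 0.36 and limma adjusted p of 0.352, 0.412 and 0.429. With the epidermal mean as a covariate, a fit added after seeing the data, these were Dhcr7, Fads2 and Insig1 (13.7% of all genes), with -0.34, 0.32 and 0.51 and limma adjusted p of 0.285, 0.362 and 0.285. Without KO animals 8 and 10, 6 members did so (8.04% of all genes), of which Acsbg1, Elovl3, Elovl6, Fa2h and Far2 were higher in KO by 0.66, 0.54, 0.59, 0.57 and 0.71 and Fads1 was lower, at -0.85. Their limma adjusted p were 0.615 or 0.616. In Acsbg1, Elovl3, Elovl6, Fa2h and Far2, KO animal 8 was the lowest KO animal and KO animal 12, which was kept, the highest. Leaving out KO animal 8 therefore raised their KO means. The sebaceous median was 0.41 in the fit without KO animals 8 and 10, which rests on KO animals 11 and 12 alone. Elovl6 reached an unadjusted p under 0.05 without KO animal 8 (difference 0.51, limma adjusted p = 0.573, 7.72% of all genes). Insig1 did so without KO animal 11 (0.58, limma adjusted p = 0.559, 8.55% of all genes) and with array weights (0.56, limma adjusted p = 0.181, 16.6% of all genes). In the probe set fit the largest weight went to KO animal 10 (2.89) and the smallest to KO animal 11 (0.431). The Insig1 difference shrank to 0.094 without KO animals 8 and 10 and to 0.16 with the hair follicle mean as a covariate.

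**Figure D4:**
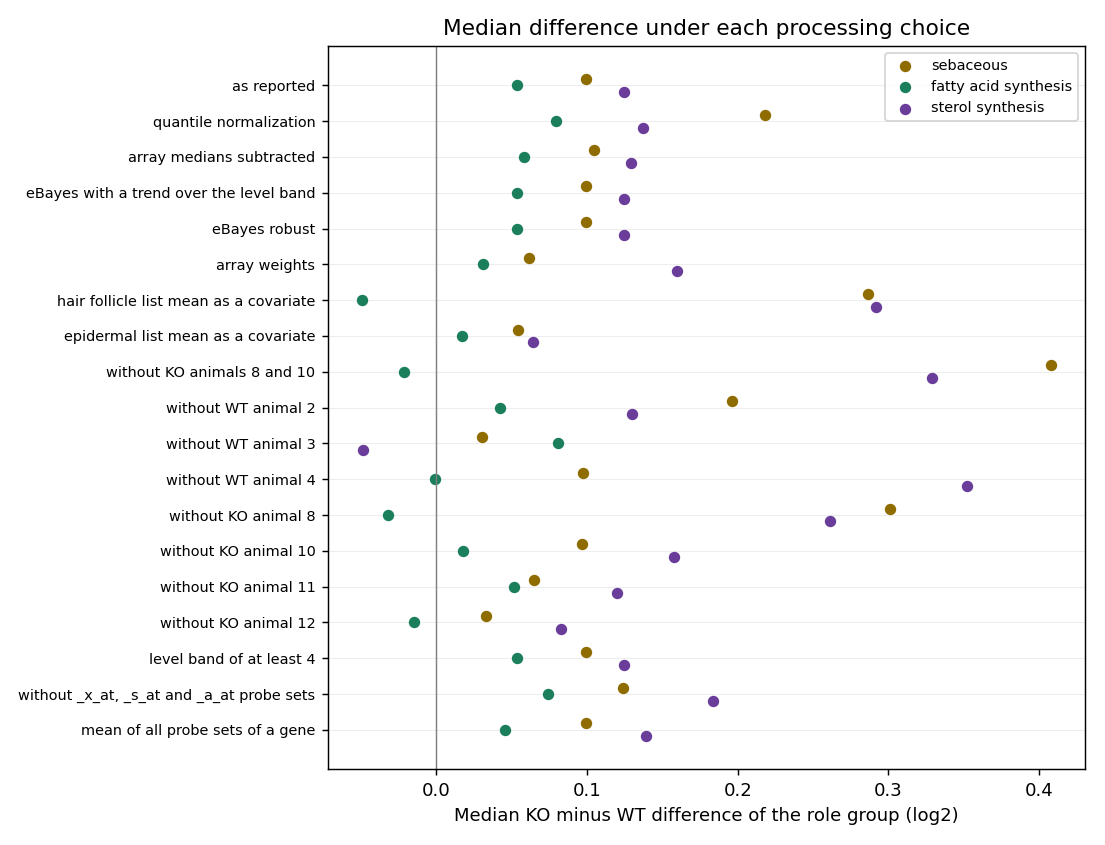
Median KO minus WT difference (log2) of the sebaceous, fatty acid and sterol members under the reported fit and 18 other processing choices, 1 row per choice. The sterol median runs from -0.049 without WT animal 3 to 0.35 without WT animal 4, and the sebaceous median reaches 0.41 without KO animals 8 and 10.

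Further genes of the same pathways were taken from lists of each pathway. Of 15 further sebaceous gland genes with a probe set (of 18 listed), 11 were higher and 4 lower in KO with a median difference of 0.20, and 0 passed adjustment. Unadjusted, 2 higher and 1 lower had a p under 0.05, beside 8.2% of all genes. These 3, named for their small p, also had groups without overlap, as 8.43% of all genes did. Alox12e, an epidermal lipoxygenase, measured -0.023, -0.86 and -0.60 in the WT animals and 0.31, 0.81, 0.023 and 0.097 in the KO animals, so every KO animal exceeded every WT animal (difference 0.81, SE 0.25, limma adjusted p = 0.465). Dgat1, which completes triglycerides, measured 0.70, 0.19 and 0.25 in the WT animals and -0.29, -0.16, 0.16 and -0.24 in the KO animals, lower in every KO animal (difference -0.51, SE 0.17, limma adjusted p = 0.473). Mgst1, a glutathione transferase and sebaceous marker, was also without overlap, at 0.27 (SE 0.11, limma adjusted p = 0.576).

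Pparg, the nuclear receptor of sebocyte and adipocyte differentiation, measured -0.098, 0.23 and -0.032 in the WT animals and -0.27, -0.077, 0.032 and 0.61 in the KO animals, a difference of 0.039 (SE 0.21). Cidea, a lipid droplet protein of sebocytes, measured 0.33, -0.30 and -0.13 in the WT animals and -0.18, 0.13, 0.44 and 1.03 in the KO animals, in the order of Far2 within each group, with a difference of 0.39 (SE 0.29). Dgat2, the other triglyceride enzyme, measured -0.018, -0.36 and 0.033 in the WT animals and -1.32, -0.73, 0.18 and 0.057 in the KO animals, with KO animals 8 and 10 far below the rest and a difference of -0.34 (SE 0.35). Plin2, which coats lipid droplets, differed by -0.031 (SE 0.14).

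Of 17 further genes of fatty acid synthesis (of 18 listed), 13 were higher and 4 lower, with a median of 0.11 and 0 at an unadjusted p under 0.05, beside 8.2% of all genes. Acly, which supplies acetyl-CoA, differed by 0.14 (SE 0.17) and Elovl5 by 0.20 (SE 0.16). Hacd3, a dehydratase of the elongation cycle named for its small p, was without overlap, as 8.43% of all genes were, at 0.28 (SE 0.14, limma adjusted p = 0.656). Acsl3, an acyl-CoA synthetase, measured -0.31, 0.014 and -0.0096 in the WT animals and 1.02, 0.87, -0.31 and -0.031 in the KO animals, high in KO animals 8 and 10 as Fads2 was, and its difference was 0.49 (SE 0.33). Scd2, the desaturase of many tissues, measured 0.011, -0.011 and -0.11 in the WT animals and 0.61, 0.19, -0.35 and -0.33 in the KO animals, again with KO animal 8 highest, for a difference of 0.067 (SE 0.23).

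Of 18 further sterol genes (of 24 listed), 10 were higher and 8 lower, with a median of 0.053 and 1 higher at an unadjusted p under 0.05, beside 8.2% of all genes. That gene was Insig2, the relative of Insig1, at 0.025, -0.47 and -0.11 in the WT animals and 0.68, 0.62, -0.092 and 0.15 in the KO animals. As in Insig1, KO animals 8 and 10 were the highest, and the difference was 0.53 (SE 0.22, limma adjusted p = 0.587). Msmo1, a demethylating enzyme of the late pathway, measured -0.094, -0.52 and 0.21 in the WT animals and -0.21, 0.094, 0.26 and 0.74 in the KO animals, in the order of Cyp51 within each group, with a difference of 0.35 (SE 0.25) that became -0.15 without _x_at, _s_at and _a_at probe sets. Abca1, the cholesterol exporter, differed by -0.28 (SE 0.17) and Tmem97, a sterol-regulated membrane protein, by -0.23 (SE 0.15).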

How the data were processed

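Wound-edge RNA (total RNA, miRVana kit, biotin label, per the labels) of 3 WT and 4 KO animals was read on 1 array each. The deposited values were made by the authors with GCRMA, per the submitters' processing notes, and were taken as log2, the scale GCRMA returns; the base, version and chip definition are not given in the sources used here. The authors had subtracted a constant per probe set: in 72.4% of probe sets a neighbouring pair of values was mirrored around 0 to within 1e-06, as the median of an even number of arrays leaves, so at least 1 array outside the 7 entered the baseline. This constant cancels in KO minus WT, but the table holds no levels. Rounding steps of the stored numbers gave a band of level, which reflects the lowest array. It was right for 97.2% of 20000 simulated probe sets, scored against their mean level at a spread smaller than the lipid genes' median. Bands at the spread of the lipid genes or of the hair follicle markers were not simulated. In the table, 172 probe sets without a readable step were put in the lowest band.

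The table held 45101 probe sets. Without its 64 controls, 34945 carried 1 symbol, 932 several and 9160 none. Differences, SE and 95% intervals came from limma 3.58.1 (lmFit, eBayes) in R 4.3.3, without covariates, over all probe sets and over all genes, with Benjamini-Hochberg adjustment over each. Animal numbers differ between the groups, so nothing was paired. Tested on simulated data of 45037 probe sets, the fit found 51% of changes of log2 1 and 94% of changes of log2 2, with 6.45% of its calls false. The simulated spread was that estimated over all probe sets. The lipid genes spread more, with a median pooled SD of 0.306 beside 0.188 over all genes, and recovery at their spread was not simulated. The p-values weigh a difference against the spread between these animals, which eBayes moderates over all probe sets or genes, and so few arrays limit the precision. Tables were read with Python 3.11.15 and pandas 2.3.3 and drawn with matplotlib 3.10.9.

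Members, lists and tests were chosen with earlier results of these data known. Named are all measured members, Mfge8, a set of 11 pathway genes where measured, the 3 genes with the smallest p of each further pathway list and the 2 of each list of hair, epidermis, adipocytes and muscle. Alternatives were quantile normalization, subtracted array medians, eBayes per level band or robust, array weights (0.431 to 2.89), a band of at least 4, probe sets without _x_at, _s_at and _a_at, a gene's mean over all its probe sets, the hair follicle mean as a covariate, leaving out each animal or KO animals 8 and 10 and, added after seeing the data, the epidermal mean as a covariate.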

Additional observations from a re-analysis of the deposited data

Results flagged for a closer look

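In the KO group of 4, 1 animal lay far from the others in 3 genes. Mc5r was at -0.23 in KO animal 8, a gap to the nearest KO animal of 0.855 of the group's range. Srebf2 was at -0.32 in KO animal 8, with a gap of 0.929 of the range. Of its 2 probe sets only 1 set KO animal 8 apart, at -0.68 beside 0.041 in the other. Hacd3 was at 0.40 in KO animal 12, with a gap of 0.946 of the range. Both the highest and the lowest animal of 50 such groups were examined, and chance alone marks about 1 in 20 of them.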

How the results depend on the processing

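No member probe set passed the threshold under any of 17 alternatives, and 0 of 466 member gene values under 18 alternatives had a limma adjusted p under 0.05. Of these 466, 50 changed sign, in 14 genes, and 12 genes kept their sign, most with a wide range over the alternatives: Mc5r 0.053 to 0.24, Elovl3 0.12 to 0.54, Elovl6 0.13 to 0.59, Far2 0.061 to 0.71, Acsbg1 0.013 to 0.66, Acaca 0.0053 to 0.082, Srebf1 -0.26 to -0.12, Hmgcs1 0.19 to 0.40, Insig1 0.094 to 0.58, Idi1 0.078 to 0.50, Cyp51 0.051 to 0.39 and Fdps 0.13 to 0.49. Of 430 values of the other named genes, 15 changed sign. The cause of these changes was not tested.

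The median over all members moved to 0.31, and that of the sebaceous members to 0.41, without KO animals 8 and 10. The fatty acid median moved to -0.049 with the hair follicle mean as a covariate, and was also negative without KO animals 8 and 10 (-0.021), KO animal 8 (-0.032), KO animal 12 (-0.015) and WT animal 4 (-0.00073). With quantile normalization, the difference changed sign for Scd1 (0.033), Dhcr7 (0.0084) and Plin2 (0.0067). With the hair follicle mean as a covariate, the difference changed sign for Scd1 (0.19), Fads2 (-0.27), Srebf2 (0.044), Dhcr7 (0.31), Scd2 (-0.20), Dgat2 (0.056) and Plin2 (0.056). Without KO animals 8 and 10, the difference changed sign for Scd1 (0.28), Scd3 (0.076), Fads2 (-0.41), Srebf2 (0.045), Dhcr7 (0.50), Scd2 (-0.30), Dgat2 (0.23), Plin2 (0.13) and Acsl3 (-0.071). With array weights, the difference changed sign for Far1 (0.054), Fads1 (0.0034), Srebf2 (0.058) and Pparg (-0.0075). With the epidermal mean as a covariate, the difference changed sign for Far1 (0.030), Fads1 (0.018), Fa2h (-0.15), Fasn (-0.011), Lss (-0.10), Mvd (-0.055), Fdft1 (-0.019) and Pparg (-0.031). With a gene averaged over all its probe sets, the difference changed sign for Fads1 (0.0071) and Sc5d (-0.024). Without _x_at, _s_at and _a_at probe sets, the difference changed sign for Msmo1 (-0.15). When each animal was left out in turn, the difference crossed 0 within these ranges: Scd1 -0.16 to 0.090, Scd3 -0.37 to 0.18, Far1 -0.16 to 0.047, Fads1 -0.49 to 0.068, Fads2 -0.13 to 0.31, Fa2h -0.17 to 0.42, Fasn -0.046 to 0.21, Srebf2 -0.21 to 0.14, Sqle -0.10 to 0.44, Lss -0.17 to 0.25, Dhcr7 -0.29 to 0.32, Mvd -0.073 to 0.25, Fdft1 -0.079 to 0.25, Sc5d -0.076 to 0.32, Scd2 -0.13 to 0.19, Pparg -0.14 to 0.15 and Plin2 -0.15 to 0.047.

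No paired analysis was possible because the groups share no animal number. With 3 and 4 arrays a change of log2 1 was recovered in 51% of simulated probe sets, at the spread of all probe sets and not the larger one of the lipid genes. The unknown subtracted constants leave no levels, and a gene's chosen probe sets can differ from its others, as in Elovl6, Fads1, Hmgcs1, Fdps and Sc5d.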
